A study of Mus musculus with 6 samples.

Results

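The astrocyte genes described here are 35 mouse genes, among them Aqp4, Slc1a2, Aldh1l1, Aldoc, Glul, S100b and the metallothioneins Mt1, Mt2 and Mt3, taken by their symbols from the 24411 genes of the count table that had a value in every library. All 35 were in the table and all 35 passed the filter on low counts in each comparison. RNA was measured in 6 libraries of a RiboTag experiment, where Cre-recombined cells make an HA-tagged Rpl22 protein and their ribosomes, with the RNA on them, are captured by an antibody to HA (IP). The groups were AnkG icKO IP (2 libraries), control IP (2 libraries), AnkG icKO input (1 library) and control input (1 library). The icKO mice were NG2CreERTM;Ank3F/F;Rpl22HA/+, and the controls were NG2CreERTM;Rpl22HA/+, so both genotypes carried the Cre and the tagged Rpl22 allele, and the floxed Ank3 alleles were in the icKO mice alone. Per the labels' protocols, both genotypes received tamoxifen at 100 mg/kg per day for 5 days at 8 weeks of age and were analysed 1 month later, 3 mice were pooled per library, and the input was a 10% portion of the cleared whole-brain homogenate.

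NG2 (Cspg4) is made by oligodendrocyte precursors and also by pericytes, so Cre under this promoter is not limited to the oligodendrocyte lineage. All 6 libraries carry the cell type label oligodendrocytes, although the 2 inputs were taken before the pull-down. In icKO IP, replicate 1 carries cKO in its title and AnkG icKO as its genotype. The IP titles call the libraries biological replicates, but the labels do not say whether the 2 pools of a genotype held different mice. The replicate spread behind the p-values may therefore be technical.

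Astrocytes clear glutamate from synapses, convert it to glutamine, buffer potassium and water through endfeet on blood vessels, store glycogen and supply lipids and metabolites to neurons. Their defining transcripts code for transporters, water channels, metabolic enzymes and metal-binding proteins. Several of these genes, S100b, Fabp7, Hepacam, Glul and Clu among them, are also known to be transcribed by other glia or neurons, so a read does not name the cell it came from. In bulk RNA, fewer cells of a type and less RNA per cell cannot be told apart.

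The libraries held 18968806 and 19569611 counts in icKO IP, 20754765 and 23930812 in control IP, 19919520 in icKO input and 21129973 in control input, so 3 counts correspond to 0.124 to 0.166 CPM, counts scaled per library to the same total. Levels below are CPM after TMM scaling by edgeR. The targeted gene Ank3 had 1163 and 1166 CPM in icKO IP, against 1386 and 1357 CPM in control IP, and 347 CPM in icKO input, against 382 CPM in control input. The icKO IP over control IP difference of Ank3 was -0.23 ± 0.02 (log2 ± SE, edgeR quasi-likelihood test, Benjamini-Hochberg adjusted p = 1.31e-10), and a count over the whole gene includes reads from exons outside the floxed part. The pull-down was rich in oligodendrocyte lineage RNA: 20 of 20 oligodendrocyte precursor genes and 28 of 30 mature oligodendrocyte genes were higher in IP than in input, with median log2 differences of 3.58 and 2.21. Of 15 pericyte and smooth muscle genes 14 were also higher in IP, with a median of 3.36, while 25 of 25 neuron genes and 17 of 18 microglia genes were lower, with medians of -2.07 and -2.23. Over all genes, 34.8% were higher and 35.1% lower in IP. These marker lists were chosen with earlier results of these data known, so their counts are a description.

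The pull-down held less RNA of most astrocyte genes than the whole homogenate. The 4 IP and 2 input libraries entered a fit with a genotype term. A gene was called where the edgeR quasi-likelihood p, adjusted by Benjamini-Hochberg over 15451 genes, was under 0.05. The spread in this fit also takes in any genotype difference in IP over input, so its SE and p do not measure replicate spread alone. Of the 35 genes, 29 were lower in IP, 4 were higher (Fabp7, Hepacam, Atp13a4 and S100b) and 2 were not called (Slc7a10 and Mfge8). Over all genes tested, 35.1% were called lower, 34.8% higher and 70.0% in either direction. The median log2 IP over input was -1.51 for the astrocyte genes and 0.01 for all genes. The 29 lower genes ranged from 1.55-fold to 9.28-fold lower in IP, with a median of 3.87-fold, and in each of them all 4 IP libraries lay below both inputs. That position was held by 82.9% of the astrocyte genes and by 37.2% of all genes, while 4 astrocyte genes (11.4%, against 36.9% of all genes) lay above both inputs in all 4 IP libraries.

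The 35 genes together took 0.364% and 0.361% of the counts of the icKO IP libraries and 0.416% and 0.417% in control IP, against 1.09% in icKO input and 1.06% in control input. Within each genotype, the median log2 IP over input was -1.52 in icKO and -1.49 in control, and Mfge8 was the gene whose sign differed. The size of these differences depends on the scale: scaled to the summed neuron genes, which were themselves lower in IP, the median over all genes shifted to 1.90 and that of the astrocyte genes to 0.38, and 14 of the 29 lower genes turned positive. Scaled to the summed mature oligodendrocyte genes, the corresponding medians were -2.39 and -3.91, and all 4 higher genes turned negative. A change of scale shifts all genes by about the same amount. The median of the astrocyte genes therefore had to stay below that of all genes on each scale, which is no separate check.

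**Figure D1:**
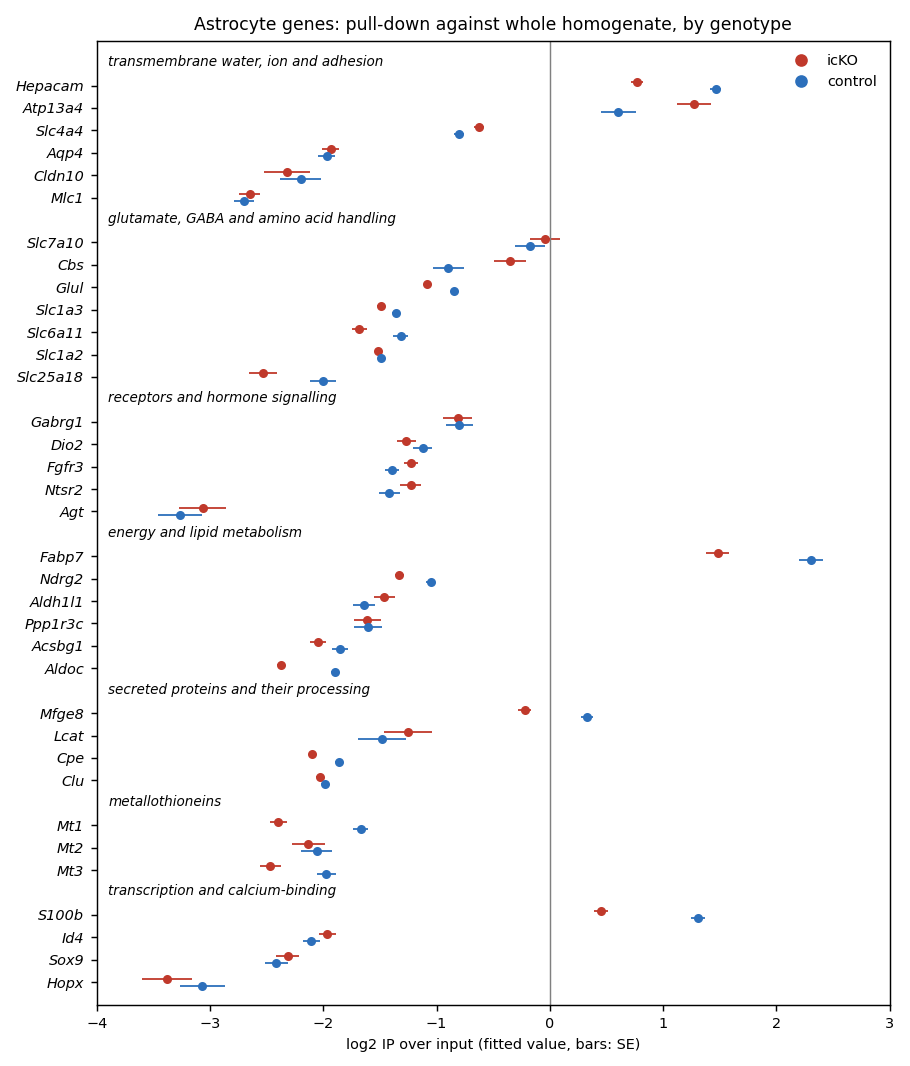
Fitted log2 IP over input for each of the 35 astrocyte genes, grouped by role, in icKO and in control (points, with SE bars), on the TMM scale; each input is 1 library. Most genes lie left of 0 in both genotypes, from -3.38 for Hopx in icKO, and Fabp7, Hepacam, Atp13a4 and S100b lie right of 0, where scaling to mature oligodendrocyte genes instead turns all 4 negative and scaling to neuron genes turns 14 of the 29 lower genes positive.

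Among transmembrane proteins of water, ion and adhesion function, 4 of 6 genes were lower in IP and 2 were higher. Mlc1, the membrane protein altered in megalencephalic leukoencephalopathy in humans, had 13.6 and 12.9 CPM in icKO IP and 11.9 and 12.3 CPM in control IP, against 83.5 CPM in icKO input and 78.9 CPM in control input. The 4 IP libraries of Mlc1 lay close together and far below both inputs, at -2.68 ± 0.08 (adjusted p = 4.29e-09, edgeR quasi-likelihood test), the lowest ratio after Hopx and Agt. Aqp4, the water channel of astrocyte endfeet, had 25.8 and 26.8 CPM in icKO IP and 22.2 and 21.9 CPM in control IP, against 101 CPM in icKO input and 86.3 CPM in control input. Its log2 IP over input was -1.95 ± 0.07 (adjusted p = 1.24e-08, edgeR), with no overlap between IP and input.

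Hepacam, which codes for the adhesion molecule GlialCAM that anchors MLC1 at cell junctions, went the other way from Mlc1. Its level was 156 and 158 CPM in icKO IP and 232 and 240.1 CPM in control IP, against 92.0 CPM in icKO input and 85.7 CPM in control input. All 4 IP libraries lay above both inputs and the control IP pair was highest, for a log2 IP over input of 1.10 ± 0.14 (adjusted p = 4.61e-05, edgeR). Atp13a4, a P5-type ATPase, had 23.8 and 22.2 CPM in icKO IP and 14.6 and 12.3 CPM in control IP, against 9.49 CPM in icKO input and 8.84 CPM in control input. It was again higher in every IP library (0.94 ± 0.16, adjusted p = 5.03e-04, edgeR), but here the icKO IP pair was highest. Cldn10, a claudin, and Slc4a4, the sodium bicarbonate cotransporter NBCe1, were both lower in IP, at -2.26 and -0.71.

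Genes of glutamate, GABA and amino acid handling gave 6 of 7 lower in IP. Slc1a2, the main glutamate transporter of astrocytes, had 1450.2 and 1416 CPM in icKO IP and 1359 and 1346 CPM in control IP, against 4108 CPM in icKO input and 3807 CPM in control input. It alone made up 37.7% of the counts of the 35 genes in icKO IP and 32.9% in control IP, against 39.0% in icKO input and 37.4% in control input. Slc1a3, the other astrocyte glutamate transporter, had 178 and 175 CPM in icKO IP and 186 and 188 CPM in control IP, against 495 CPM in icKO input and 481 CPM in control input. The ratios of both transporters were alike, at -1.51 ± 0.07 and -1.43 ± 0.06 (adjusted p = 5.33e-08 and 4.76e-08, edgeR), and IP and input did not overlap in either.

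Glul, glutamine synthetase, was less depleted than the transporters. It had 475 and 473 CPM in icKO IP and 549.9 and 559.6 CPM in control IP, against 1003 CPM in icKO input and 998 CPM in control input, a log2 IP over input of -0.97 ± 0.07 (adjusted p = 1.59e-06, edgeR). Its reads are uncertain to the extent that 14.2% of its 50-base words also occur in other annotated genes, chiefly the pseudogene Glns-ps1. Per kilobase of its longest transcript, Glul ranked first of the 35 genes in both IP groups, at 170 CPM per kb in icKO IP and 199 CPM per kb in control IP, ahead of Cpe at 156 and 192. In both inputs Cpe ranked first, at 667 CPM per kb in icKO input and 699 CPM per kb in control input, ahead of Glul at 359 and 357.

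Slc7a10, an exchanger of small neutral amino acids such as D-serine and glycine, was not separated by the pull-down. It had 18.8 and 23.3 CPM in icKO IP and 15.7 and 14.9 CPM in control IP, against 21.7 CPM in icKO input and 17.3 CPM in control input. The IP and input ranges overlapped and the log2 IP over input was -0.11 ± 0.11 (adjusted p = 0.419, edgeR). Slc7a10 overlaps Lrp3 on the opposite strand, and the strand setting of the counting is not given in the sources used here. Cbs, cystathionine beta-synthase of sulfur amino acid metabolism, was the least depleted of the lower genes at -0.63 ± 0.13. Slc6a11, a GABA transporter, and Slc25a18, a mitochondrial glutamate carrier, were lower at -1.50 and -2.27. Slc25a18 overlaps Atp6v1e1 on the opposite strand.

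All 5 genes of receptors and hormone signalling were lower in IP. Agt, angiotensinogen, fell to 2.63 and 1.71 CPM in icKO IP and 2.001 and 2.11 CPM in control IP, against 18.3 CPM in icKO input and 19.8 CPM in control input (-3.17 ± 0.16, adjusted p = 1.06e-07, edgeR). Fgfr3 and Ntsr2, receptors for fibroblast growth factors and neurotensin, were lower at -1.31 and -1.33. Dio2, the deiodinase that activates thyroid hormone, and Gabrg1, a GABA-A receptor subunit, were lower at -1.20 and -0.81. Fgfr3, Dio2, Slc1a2, Aldh1l1, Id4, Hopx, Mt2 and Glul each overlap an annotated gene on the opposite strand too.

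Of 6 genes of energy and lipid metabolism, 5 were lower in IP and Fabp7 was higher. Aldh1l1, a folate enzyme widely used to mark astrocytes, had 27.1 and 25.0 CPM in icKO IP and 16.1 and 20.5 CPM in control IP, against 71.7 CPM in icKO input and 57.4 CPM in control input (-1.55 ± 0.10, adjusted p = 5.69e-07, edgeR). Aldoc, the brain aldolase of glycolysis, was lower at -2.14, and Acsbg1 (an acyl-CoA synthetase), Ppp1r3c (a glycogen-targeting phosphatase subunit) and Ndrg2 at -1.95, -1.61 and -1.19. Fabp7, a fatty acid binding protein of radial glia and astrocytes, had 41.8 and 42.1 CPM in icKO IP and 54.8 and 54.7 CPM in control IP, against 15.04 CPM in icKO input and 11.1 CPM in control input. Every IP library exceeded both inputs, and Fabp7 had the highest ratio of the 35 genes, at 1.88 ± 0.16 (3.68-fold, adjusted p = 3.84e-06, edgeR).

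Among secreted proteins and their processing enzymes, Clu (clusterin), Cpe (carboxypeptidase E) and Lcat (a cholesterol acyltransferase of lipoproteins) were lower in IP at -2.01, -1.98 and -1.37. Mfge8, a bridging protein in the uptake of dying cells, had 93.0 and 91.9 CPM in icKO IP and 128 and 124 CPM in control IP, against 108 CPM in icKO input and 100.1 CPM in control input. The control IP pair lay above both inputs and the icKO IP pair below both, so the ratio over the genotypes was 0.05 ± 0.11 (adjusted p = 0.719, edgeR). Within genotypes, with 1 input library each whose spread is taken from the IP pairs, Mfge8 was lower in icKO IP than in icKO input (-0.22 ± 0.06, adjusted p = 6.65e-04, edgeR) and higher in control IP than in control input (0.33 ± 0.05, adjusted p = 2.63e-06, edgeR).

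Of the remaining genes, Hopx, a homeodomain-only protein, had the lowest ratio of all 35. Its level was 1.66 and 1.38 CPM in icKO IP and 2.05 and 1.86 CPM in control IP, against 15.9 CPM in icKO input and 16.4 CPM in control input (-3.21 ± 0.16, adjusted p = 7.75e-08, edgeR). Sox9, a transcription factor of astrocyte nuclei, had 15.2 and 13.4 CPM in icKO IP and 10.8 and 13.2 CPM in control IP, against 71.1 CPM in icKO input and 64.3 CPM in control input (-2.37 ± 0.10, adjusted p = 2.83e-08, edgeR). Id4, an inhibitor of basic helix-loop-helix factors, was lower at -2.03. S100b, a calcium-binding protein, stood apart from these with 88.4 and 88.7 CPM in icKO IP and 148 and 144 CPM in control IP, against 64.7 CPM in icKO input and 59.1 CPM in control input. All 4 IP libraries of S100b lay above both inputs (0.87 ± 0.16, adjusted p = 7.26e-04, edgeR).

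**Figure D2:**
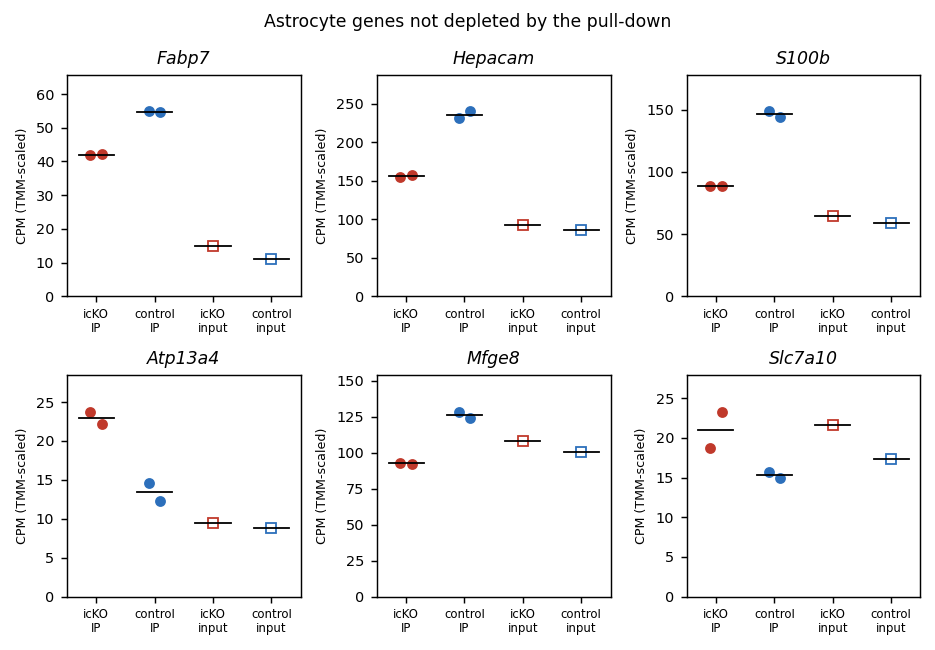
TMM-scaled CPM of the 6 astrocyte genes that were higher or not called in IP over input, per library (points) in icKO IP, control IP, icKO input and control input, with the group mean as a line. Fabp7, Hepacam, S100b and Atp13a4 lie above both inputs in all 4 IP libraries, though not when scaled to mature oligodendrocyte genes, and Mfge8 lies below both inputs in icKO IP and above both in control IP.

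The 3 metallothioneins, small metal-binding proteins, were all lower in IP. Of their genes, Mt1 and Mt2 are known to be induced by zinc and stress hormones. Their genes lie within 27.7 kb of chromosome 8, all on the plus strand (GRCm38, chr8:94152607-94180327). Their promoters are shown because these genes neighbour each other. Their ratios of IP over input, given below, lay near the median of the 29 lower genes (-1.95), so the shared depletion is not particular to them. A link between promoters and these ratios was not tested. In the RefSeq sequences below (GRCm38.p6, plus strand, 250 bases before to 50 after the start), capitals mark the core of the metal response element, searched as TGCACNC or TGCGCNC on both strands. The windows are chr8:94178839-94179138 for Mt1, chr8:94172368-94172667 for Mt2 and chr8:94152357-94152656 for Mt3.
Mt1: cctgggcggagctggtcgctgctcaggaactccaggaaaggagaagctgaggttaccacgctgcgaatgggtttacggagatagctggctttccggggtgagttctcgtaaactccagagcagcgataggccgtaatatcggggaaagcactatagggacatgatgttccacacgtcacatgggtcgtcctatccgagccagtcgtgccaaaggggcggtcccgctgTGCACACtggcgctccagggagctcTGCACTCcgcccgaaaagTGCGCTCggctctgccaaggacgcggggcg
Mt2: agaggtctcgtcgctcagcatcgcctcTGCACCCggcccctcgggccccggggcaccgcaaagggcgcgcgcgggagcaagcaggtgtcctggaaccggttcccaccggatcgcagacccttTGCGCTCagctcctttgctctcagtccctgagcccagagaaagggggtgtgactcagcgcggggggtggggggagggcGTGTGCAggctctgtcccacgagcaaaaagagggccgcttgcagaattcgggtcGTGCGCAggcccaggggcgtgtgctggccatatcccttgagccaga
Mt3: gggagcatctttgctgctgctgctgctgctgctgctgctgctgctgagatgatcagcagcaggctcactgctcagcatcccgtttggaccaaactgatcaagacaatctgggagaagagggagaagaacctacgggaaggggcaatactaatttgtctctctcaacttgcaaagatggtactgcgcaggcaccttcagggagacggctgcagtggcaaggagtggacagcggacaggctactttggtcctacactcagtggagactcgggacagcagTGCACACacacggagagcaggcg

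The Mt1 window held 3 cores, that of Mt2 4 and that of Mt3 1. Of 32851 RefSeq promoters of that length, 25.7% held at least 1 core and 1.97% held 3 or more, and of the 39 promoters matched to 31 of the astrocyte genes 12 held at least 1. Such a match describes letters in a window and does not show a bound site. Mt1 had 21.6 and 23.8 CPM in icKO IP and 43.9 and 42.3 CPM in control IP, against 119 CPM in icKO input and 137 CPM in control input. Mt2 had 5.36 and 5.96 CPM in icKO IP and 6.43 and 6.93 CPM in control IP, against 24.8 CPM in icKO input and 27.9 CPM in control input. Mt3, a form known mainly from brain, had 13.7 and 13.8 CPM in icKO IP and 18.1 and 19.2 CPM in control IP, against 76.1 CPM in icKO input and 73.5 CPM in control input. In all 3 genes the order was the same, with icKO IP lowest, control IP next and both inputs far above. The log2 IP over input was -2.03 ± 0.13 for Mt1, -2.09 ± 0.11 for Mt2 and -2.22 ± 0.11 for Mt3 (adjusted p = 5.57e-07, 1.11e-07 and 7.61e-08, edgeR).

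**Figure D3:**
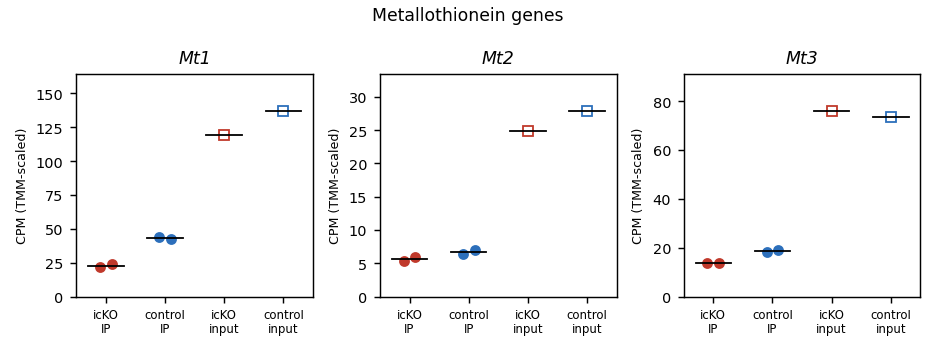
TMM-scaled CPM of Mt1, Mt2 and Mt3 per library (points) in icKO IP, control IP, icKO input and control input, with the group mean as a line. In each gene both icKO IP points lie below both control IP points, and all IP points lie below the inputs; scaled to mature oligodendrocyte genes, the order of the IP pairs is turned for Mt2 and Mt3.

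Within the pull-down, nearly as many astrocyte genes were higher as lower in icKO IP, much as over all genes. The 4 IP libraries were compared by the same edgeR test over 15069 genes and the same threshold. Of the 35 genes, 11 were lower in icKO IP (Hepacam, Glul, Aldoc, Fabp7, Ndrg2, Clu, Cpe, Mfge8, Mt1, Mt3 and S100b), 9 were higher (Aqp4, Slc4a4, Atp13a4, Slc1a2, Slc7a10, Cbs, Fgfr3, Ntsr2 and Aldh1l1) and 15 were not called. Over all genes tested, 25.2% were called lower, 22.1% higher and 47.2% in either direction, so these shares were near those of the whole table. The median log2 icKO IP over control IP was -0.02 for the astrocyte genes and 0.00 for all genes. The falls ranged from -0.92 to -0.22 and the rises from 0.09 to 0.78. In 17 genes both icKO IP libraries lay below both control IP libraries and in 13 above, and in 5 the pairs overlapped, with shares of 48.6%, 37.1% and 14.3% (36.7%, 35.3% and 28.0% of all genes). The spread within a pair was small, with a median coefficient of variation of 3.52% in icKO IP and 3.04% in control IP, and highest for Agt in icKO IP (29.9%) and Lcat in control IP (31.6%).

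On another scale the balance changed. Scaled to the summed mature oligodendrocyte genes, of which 28 of 30 were lower in icKO IP with a median of -0.71, the median of all genes was 0.67 and that of the astrocyte genes 0.65, and 30 of the 35 were called higher and 1, Mt1, lower. Scaled to the neuron genes, the medians were -0.16 for all genes and -0.18 for the astrocyte genes, with 18 lower and 6 higher. The marker lists of the pulled-down lineage moved with genotype: 15 of 20 oligodendrocyte precursor genes and 15 of 15 pericyte and smooth muscle genes were lower in icKO IP, with medians of -0.26 and -0.93. The summed mature oligodendrocyte level was 19830 to 19932 CPM in icKO IP and 31620 to 31802 CPM in control IP, against 4799 CPM in icKO input and 4796 CPM in control input. Their part in the genotype differences of the astrocyte genes was not tested.

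**Figure D4:**
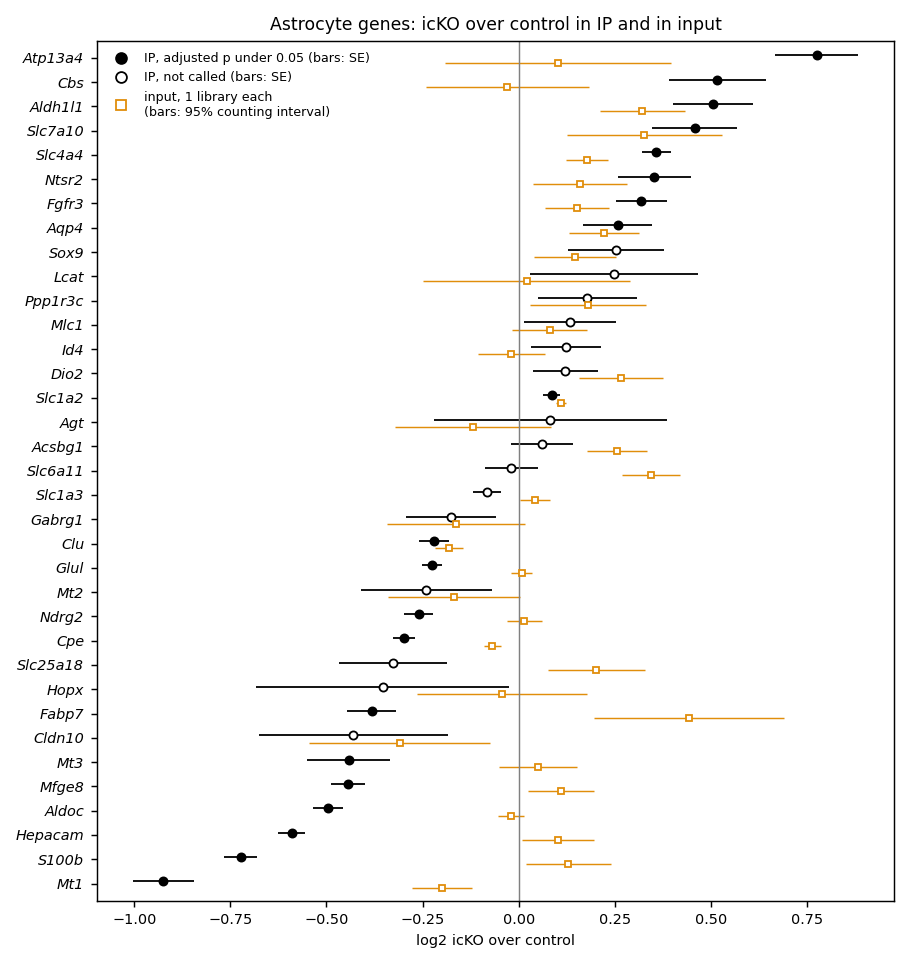
Log2 icKO over control for the 35 astrocyte genes in IP (circles, filled where the edgeR adjusted p was under 0.05, bars are SE, 2 libraries per genotype) and in input (squares, 1 library per genotype, bars are 95% counting intervals), on the TMM scale. Mt1, S100b, Hepacam and Aldoc have the most negative IP values among the called genes, while the input values lie between -0.31 and 0.44; scaled to mature oligodendrocyte genes, all falls but those of Mt1 and S100b turn positive.

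The 5 largest called falls in icKO IP were those of Mt1, S100b, Hepacam, Aldoc and Mfge8, with the level in every library given above for all but Aldoc. Mt1 fell to 22.7 ± 1.58 CPM in icKO IP, against 43.1 ± 1.15 CPM in control IP (SD, n = 2 each), which is 0.527 of the control level, at -0.92 ± 0.08 log2 (adjusted p = 1.46e-11, edgeR). S100b fell by 0.72 ± 0.04 on the log2 scale (adjusted p = 1.98e-15, edgeR) and Hepacam by 0.59 ± 0.04 (adjusted p = 1.79e-15, edgeR). The icKO IP pair lay below the control IP pair in all 3 genes, and under scaling to mature oligodendrocyte genes Mt1 stayed lower (-0.25), S100b was not called (-0.05) and Hepacam was higher (0.082).

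Aldoc had 123 and 129 CPM in icKO IP, against 177 and 179 CPM in control IP, with 653 CPM in icKO input and 663 CPM in control input. Its fall in icKO IP was 0.50 ± 0.04 on the log2 scale (-0.50, adjusted p = 1.62e-12, edgeR), while its inputs were alike. Mfge8 and Mt3 were both lower in icKO IP at -0.44, with SE of 0.04 and 0.11 (adjusted p = 5.24e-10 and 0.00104, edgeR). Fabp7, Cpe, Ndrg2, Glul and Clu had smaller falls, from -0.38 to -0.22. Of these 7 genes, each turned positive when scaled to mature oligodendrocyte genes.

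The 5 largest called rises in icKO IP were those of Atp13a4, Cbs, Aldh1l1, Slc7a10 and Slc4a4. Atp13a4 rose by 0.78 ± 0.11 on the log2 scale (1.71-fold, adjusted p = 3.71e-07, edgeR). Cbs had 13.1 and 13.9 CPM in icKO IP, against 9.48 and 9.41 CPM in control IP, with 17.2 CPM in icKO input and 17.6 CPM in control input, a rise of 0.52 ± 0.13 (adjusted p = 0.00105, edgeR). Aldh1l1 rose by 0.51 ± 0.10 (adjusted p = 1.35e-04, edgeR), and in these 3 genes both icKO IP libraries lay above both control IP libraries.

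Slc7a10 rose by 0.46 ± 0.11 (adjusted p = 8.53e-04, edgeR), a call that rested on icKO IP replicate 2 and was lost without it (0.29, adjusted p = 0.0659, edgeR). Slc4a4 had 171 and 168 CPM in icKO IP, against 132 and 133 CPM in control IP, with 261 CPM in icKO input and 231 CPM in control input, and rose by 0.36 ± 0.04 (adjusted p = 1.98e-09, edgeR). Fgfr3 and Ntsr2 rose by 0.32 and 0.35, and the call of Ntsr2 was lost when scaled to neuron genes (0.19, adjusted p = 0.0964, edgeR). The rise of Aqp4 was small at 0.26 ± 0.09 (adjusted p = 0.0176, edgeR) and its call was lost without control IP replicate 1 (adjusted p = 0.0519), control IP replicate 2 (0.0808) or icKO IP replicate 2 (0.0894), with edgeR in each. The rise of Slc1a2 was 0.09 ± 0.02 on the TMM scale (adjusted p = 0.00168, edgeR) and turned to -0.00099 with library totals and -0.076 when scaled to neuron genes.

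The call in IP over input did not fix the direction between genotypes. Of the 4 genes higher in IP, 3 fell and Atp13a4 rose in icKO IP. Of the 29 genes lower in IP, 7 rose, 7 fell and 15 were not called, near the shares of all genes (22.1% higher and 25.2% lower). Among the 15 were Slc1a3 (-0.08 ± 0.04, adjusted p = 0.0545, edgeR), Sox9 (0.25 ± 0.13, adjusted p = 0.0958, edgeR) and Mt2 (-0.24 ± 0.17, adjusted p = 0.255, edgeR). Sox9 was called higher without control IP replicate 2 (0.41, adjusted p = 0.0234, edgeR), Slc1a3 was called lower with library totals (-0.17), and for Mt2 the IP pairs did not overlap although the difference was not called. A p that misses the threshold does not show equal levels in these genes.

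The rises and falls also divided by transcript length, a pattern noticed in these values and given without a test. Of 12 astrocyte genes with a longest annotated transcript over 4 kb, 7 rose in icKO IP and 5 were not called, with a median of 0.26. Of 23 genes of 4 kb or less, 2 rose (Slc7a10 and Ntsr2) and 11 fell, with a median of -0.26. All genes showed the same tendency to a smaller extent: over 4 kb, 35.2% were called higher and 20.6% lower, and at 4 kb or less, 13.5% were called higher and 28.5% lower, with medians of 0.08 and -0.07. With an offset for the length curve of all genes, 10 of the 35 genes were lower and 7 higher, and the shares of all genes in that fit are not given here. In that fit Fabp7, Mt3 and Clu were no longer called lower (adjusted p = 0.0996, 0.221 and 0.0508, edgeR), and Aqp4 was no longer called higher (adjusted p = 0.0680, edgeR). Slc1a2 turned to -0.15 (adjusted p = 1.63e-06, edgeR), and Slc1a3 became called lower at -0.13 (adjusted p = 0.00461, edgeR).

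**Figure D5:**
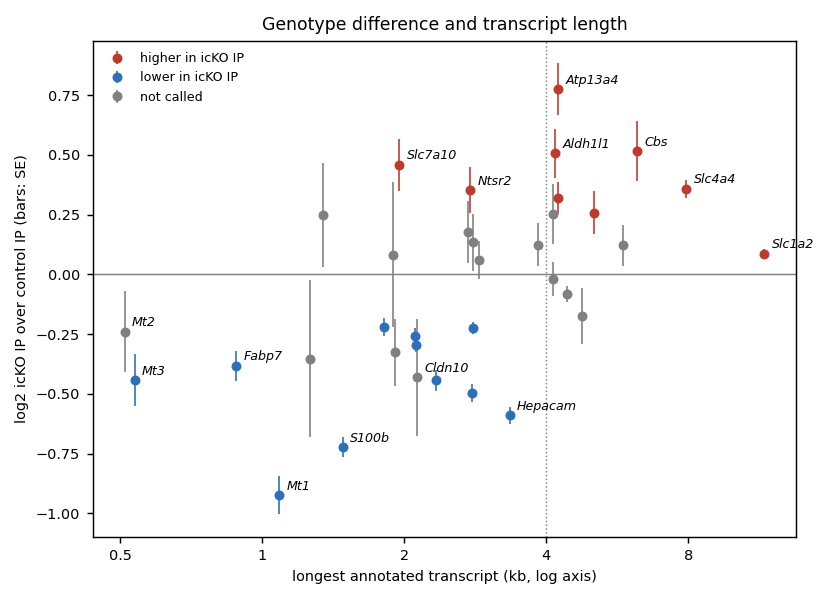
Log2 icKO IP over control IP (bars are SE, 2 libraries per genotype) against the longest annotated transcript of each astrocyte gene in kb on a log axis, coloured by the edgeR call, on the TMM scale. The dotted line marks 4 kb; all 11 called falls lie to its left, and 7 of the 9 rises to its right, where Slc1a2 turned negative with a length offset, with library totals and when scaled to neuron genes.

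The input libraries give the genotype comparison in whole homogenate, with 1 library each and no test. The log2 icKO input over control input had a median of 0.10 over the 35 genes. Its 95% counting interval lay above 0 for 18 genes, below 0 for 4 (Mt1, Clu, Cpe and Cldn10) and held 0 for 13. These intervals cover counting error only. Between icKO input and control input the chi-square of counts per degree of freedom was 5.45, above counting noise, and it takes in any genotype difference. The corresponding median and interval counts over all genes are not given here. A shift particular to astrocyte genes can therefore not be read from these counts. Fabp7 was the highest at 0.44 (0.19 to 0.69) and Cldn10 the lowest at -0.31 (-0.54 to -0.08). Mt1 was at -0.20 (-0.28 to -0.12), a smaller difference than in IP, and Aldoc, with an interval of -0.05 to 0.01, held 0.

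For 15 of the 35 genes the genotype difference in IP departed from that in input. In the fit over 4 groups, where the spread of a lone input is taken to be that of the IP pairs, the interaction was called lower for 12 genes and higher for 3, where 14.2% of all genes were called lower, 10.3% higher and 24.5% in either direction. The median was -0.07 for the astrocyte genes and -0.01 for all genes. S100b (-0.85 ± 0.09, adjusted p = 5.16e-09, edgeR), Fabp7 (-0.83 ± 0.15, adjusted p = 1.49e-04, edgeR), Mt1 (-0.73 ± 0.10, adjusted p = 1.99e-06, edgeR) and Hepacam (-0.69 ± 0.07, adjusted p = 8.28e-09, edgeR) had the lowest values, so their enrichment or depletion relative to input was shifted down in icKO. S100b was 1.37-fold above input in icKO and 2.47-fold in control, Fabp7 2.79-fold in icKO and 4.94-fold in control, and Hepacam 1.70-fold in icKO and 2.76-fold in control. Mt1 was 5.27-fold below input in icKO and 3.19-fold in control. Scaled to mature oligodendrocyte genes, where the median of all genes was 0.66 and that of the astrocyte genes 0.60, 26 genes were called higher, and Hepacam, Fabp7, Mt1 and S100b kept a negative sign without a call.

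Astrocyte genes outside the 35 gave a more mixed picture. Of 40 other astrocyte genes 26 were lower and 7 higher in IP than in input, with a median of -0.85, and in icKO IP 12 were lower and 14 higher than in control IP, with a median of 0.07. The shares over all genes were 35.1% lower and 34.8% higher in IP, and 25.2% lower and 22.1% higher in icKO IP. Gja1, the astrocyte gap junction protein connexin 43, had 18.6 and 17.5 CPM in icKO IP and 17.7 and 18.0 CPM in control IP, against 154 CPM in icKO input and 142 CPM in control input. Its depletion of -3.04 ± 0.07 (adjusted p = 3.21e-09, edgeR) lay near those of Hopx and Agt, and its IP pairs overlapped. Gfap, the intermediate filament of astrocytes, had 36.7 and 33.6 CPM in icKO IP and 26.2 and 26.3 CPM in control IP, against 113 CPM in icKO input and 108 CPM in control input, and was higher in icKO IP by 0.42 ± 0.08 (adjusted p = 5.15e-05, edgeR).

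Genes known from reactive astrocytes behaved differently: of 14 tested in IP over input 4 were lower and 9 higher, with a median of 0.80. Over all genes, 35.1% were lower and 34.8% higher. Of 12 tested in icKO IP over control IP 8 were lower and 4 not called, with a median of -0.51. Over all genes, 25.2% were lower and 22.1% higher there. For the genotype difference in IP minus that in input, 2 of 14 were lower and 12 not called, with a median of -0.13. Gfap, which was higher in icKO IP, was not in this list. Vim, a filament protein also made by pericytes and endothelium, had 38.0 and 39.5 CPM in icKO IP and 52.5 and 56.3 CPM in control IP, against 31.3 CPM in icKO input and 40.0 CPM in control input. Its fall in icKO IP was 0.49 ± 0.07 on the log2 scale (adjusted p = 2.46e-07, edgeR). The genotype difference of Vim in IP minus that in input was not called (-0.14 ± 0.12, adjusted p = 0.464, edgeR). The summed level of the pericyte and smooth muscle genes was 1088 to 1100 CPM in icKO IP and 2038 to 2064 CPM in control IP. In the inputs that sum was 132 CPM in icKO and 136 CPM in control. The part of those cells in these values was not tested.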

How the data were processed

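Per the labels' protocols, RNA of HA pull-downs and of whole-brain homogenate was made into libraries with a strand-keeping total RNA kit (Takara SMARTer, Pico input). The deposited table holds raw read counts per gene symbol for 6 libraries. The submitters' processing notes name Trimmomatic 0.39, STAR 2.7.10b and mm10. Not given in the sources used here are the read counter, its annotation and strand setting, and how duplicates were handled, which leaves overlapping genes and near-identical copies uncertain. Of 24421 genes, 10 were blank in the inputs and were left out, leaving 24411.

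Samples were grouped by title and genotype label. The counts were fitted in R 4.3.3 with edgeR 4.0.16 (limma 3.58.1), using TMM factors, genes kept by filterByExpr, the quasi-likelihood F test and Benjamini-Hochberg adjustment over all genes tested, called at an adjusted p under 0.05. IP over input used 6 libraries with a genotype term (15451 genes), icKO IP over control IP the 4 IP libraries (15069 genes), and the interaction a fit of 4 groups where the spread of a lone input is taken from the IP pairs. The input ratio has no test, and its exact Clopper-Pearson 95% interval covers counting error only. With 18968806 to 23930812 counts per library, the common biological coefficient of variation was 8.61% in the IP over input fit and 3.01% in the IP fit. The former also takes in genotype differences in IP over input. The chi-square of counts per degree of freedom was 2.11 between the icKO IP libraries and 2.19 between the control IP libraries, so neither pair agreed within counting noise. This does not tell biological from technical repeats, and the libraries were used as the replicates their titles name.

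Every one of the 35 genes is given. By the naming rule, genes not lower in IP, the 3 lowest ratios, the metallothioneins, Aqp4, Aldh1l1, Slc1a2, Slc1a3, Glul, Sox9 and the 5 largest called rises and falls in icKO IP are given per library, with Mlc1 as the third lowest ratio, and the others by value or range. The genes and the marker lists were chosen with earlier results of these data known, and the marker lists hold 194 symbols, all found in the table. Lengths are those of the longest GENCODE M21 transcript, found for 23350 genes (95.7%) and all 35 astrocyte genes. On simulated counts with 200 changed genes, the IP over input fit recovered 85.7% of 1.3-fold and 100% of 2-fold changes, the genotype fit 76.6% and 98.3%, and the interaction 26.1% and 86.2%. The simulation gave every library, inputs included, a spread near that of the IP fit, below the 8.61% of the IP over input fit. It also changed far fewer genes than were called in the data, so these rates may overstate recovery here. Alternatives were library totals, DESeq2 1.42.0 and its size factors, scaling to neuron or mature oligodendrocyte genes, no filter, a mean of at least 5 CPM, each library left out, each genotype alone, a replicate block and a length offset.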

Additional observations from a re-analysis of the deposited data

Results flagged for a closer look

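For 15 astrocyte genes the log2 IP over input in icKO minus that in control differed from 0 in edgeR's quasi-likelihood test of the interaction, at an adjusted p under 0.05, and each is given here as a difference between genotypes. The difference was negative for 12 genes: S100b (-0.854), Fabp7 (-0.826), Mt1 (-0.726), Hepacam (-0.694), Mfge8 (-0.555), Slc25a18 (-0.527), Mt3 (-0.494), Aldoc (-0.478), Slc6a11 (-0.365), Ndrg2 (-0.276), Glul (-0.235) and Cpe (-0.231). It was positive for 3 genes, Atp13a4 (0.671), Cbs (0.544) and Slc4a4 (0.179). In S100b, Fabp7 and Hepacam, which were above input in both genotypes, the excess over input was smaller in icKO. In Atp13a4 it was larger in icKO. Mfge8 lay below input in icKO and above it in control. In the other 8 genes of negative difference the ratio to input was lower in icKO, and in Cbs and Slc4a4 it was higher. These ratios depend on the lone inputs as well. For Slc6a11 icKO IP and control IP were alike (-0.02, not called), and the icKO input was above the control input by 0.34. Slc25a18 differed in both fractions, at -0.33 in icKO IP over control IP (adjusted p = 0.0561, edgeR, not called) and 0.20 in input. In IP it was called lower with library totals (-0.41) and without a filter (-0.34), and higher when scaled to mature oligodendrocyte genes (0.34). The input of Fabp7 was higher in icKO by 0.44.

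Each genotype had 1 input library, assumed in this test to vary like the IP pairs. With DESeq2 the calls of Slc25a18 (adjusted p = 0.165), Mt3 (0.0726), Slc6a11 (0.0694), Atp13a4 (0.158), Cbs (0.266) and Slc4a4 (0.203) were lost, which include all 3 positive ones. Some calls rested on single libraries. The call of Slc25a18 was lost without control IP replicate 1 (-0.40, adjusted p = 0.111, edgeR) or icKO IP replicate 2 (-0.40, adjusted p = 0.0886, edgeR). That of Atp13a4 was lost without control IP replicate 2 (0.55, adjusted p = 0.0738, edgeR). That of Slc4a4 was lost without control IP replicate 1 (adjusted p = 0.0540, edgeR) or icKO IP replicate 1 (0.0529). That of Cbs was lost without control IP replicate 1 (adjusted p = 0.0572, edgeR), control IP replicate 2 (0.0682) or icKO IP replicate 2 (0.0844).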

How the results depend on the processing

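The counts of lower and higher astrocyte genes in IP over input stayed within 1.5 times of 29 and 4 with library totals, DESeq2, DESeq2 size factors, either filter and each library left out (29 to 30 lower, 4 to 5 higher, median -1.52 to -1.49). With library totals the median was -1.58 and Mfge8 -0.029. Mfge8 was also negative without the control input (-0.23) and in icKO alone (-0.22). Scaled to neuron genes, 7 were lower and 20 higher, with a median of 0.38, against 1.90 for all genes, and these turned positive: Slc4a4 1.18, Slc1a2 0.38, Slc1a3 0.46, Slc6a11 0.39, Slc7a10 1.78, Glul 0.92, Cbs 1.26, Fgfr3 0.58, Ntsr2 0.57, Gabrg1 1.08, Dio2 0.69, Aldh1l1 0.34, Ppp1r3c 0.28, Ndrg2 0.70 and Lcat 0.52. Scaled to mature oligodendrocyte genes, 35 were lower and 0 higher in edgeR (also 0 at an unadjusted p under 0.05, while DESeq2 on its own scale gave 4), with a median of -3.91, against -2.39 for all genes, and these turned negative: Hepacam -1.27, Atp13a4 -1.48, Fabp7 -0.50, Mfge8 -2.33 and S100b -1.51.

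For icKO IP over control IP, each IP library left out gave 11 to 12 lower, 7 to 9 higher and a median of -0.098 to 0.028. The median was -0.11 with library totals and 0.012 with a mean of at least 5 CPM, which kept 31 of the genes. Scaled to neuron genes, 18 were lower, with a median of -0.18. Scaled to mature oligodendrocyte genes, 1 was lower and 30 higher, with a median of 0.65, and these turned positive: Hepacam 0.082, Slc1a3 0.59, Glul 0.45, Aldoc 0.18, Fabp7 0.29, Ndrg2 0.41, Clu 0.45, Cpe 0.37, Mfge8 0.23, Mt2 0.43, Mt3 0.23, Cldn10 0.24, Gabrg1 0.50, Hopx 0.32, Slc25a18 0.34 and Slc6a11 0.65. Slc1a2 turned to -0.00099 with library totals, -0.076 with neuron scaling and -0.15 with the length offset, which also put Mt2 at 0.029. The replicate numbers of the IP titles did not pair the libraries (correlation of deviations -0.0031 over 15069 genes). With the replicate block 12 were lower and 9 higher, with a median of -0.02, and Slc25a18 was the call gained (adjusted p = 0.0422, edgeR). No other call changed with the block. Aqp4 also lost its call with DESeq2 (adjusted p = 0.0811) and library totals (0.114).

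For the genotype difference in IP minus that in input, each IP library left out gave 11 to 13 lower, 1 to 2 higher and a median of -0.13 to -0.059. With library totals 1 was higher and the median was -0.15. With neuron scaling 16 were lower and 0 higher in edgeR (2 at an unadjusted p under 0.05), with a median of -0.20. DESeq2 gave 9 lower and 0 higher (1 at an unadjusted p under 0.05). Scaled to mature oligodendrocyte genes, 0 were lower in edgeR (0 also at an unadjusted p under 0.05, while DESeq2 on its own scale gave 9) and 26 higher, with a median of 0.60, against 0.66 for all genes, and of the called genes these turned positive: Slc6a11 0.31, Glul 0.44, Slc25a18 0.15, Aldoc 0.20, Ndrg2 0.40, Cpe 0.44, Mfge8 0.12 and Mt3 0.18. The input medians stayed at 0.07 to 0.11 with each scaling tried. The cause of these changes beyond the scale itself was not tested. The main limits are 2 libraries per IP group, 1 per input group, a depth at which Hopx, Agt, Cldn10 and Lcat lie under 5 CPM in IP, and a scale that turns the sign of differences as large as those of Fabp7 and Slc1a2 between IP and input.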

Other observations

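By role, the genotype calls in the pull-down are given here as counts with no test, beside 25.2% lower and 22.1% higher over all genes. Of 6 genes of transmembrane water, ion and adhesion function 3 were higher and 1 lower in icKO IP, with a median log2 difference of 0.20. Of 7 genes of glutamate, GABA and amino acid handling 3 were higher and 1 lower, with a median of -0.02. Of 6 genes of energy and lipid metabolism 1 was higher and 3 lower, with a median of -0.10. Among the 4 secreted proteins and processing enzymes 3 were lower, with a median of -0.26, and among the 3 metallothioneins 2 were lower, with a median of -0.44. Of 5 genes of receptors and hormone signalling 2 were higher, with a median of 0.12. Of 4 genes of transcription and calcium binding 1, S100b, was lower, with a median of -0.12. These medians are on the TMM scale, and scaling to mature oligodendrocyte genes puts the median of all genes at 0.67.

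Endothelial, choroid plexus and ependymal genes were mostly lower in the pull-down as well, unlike the pericyte and smooth muscle genes. Of 15 endothelial genes 11 were lower and 1 higher in IP than in input, with a median of -0.86. Of 12 choroid plexus and ependymal genes 11 were lower and 1 higher, with a median of -1.71. Between genotypes, 3 endothelial genes were lower and 2 higher in icKO IP, and of 11 choroid plexus and ependymal genes 1 was lower and 2 higher. Of 18 microglia genes 2 were lower and 3 higher in icKO IP, and of 25 neuron genes 5 were lower and 11 higher. Over all genes, 35.1% were called lower and 34.8% higher in IP than in input. Between genotypes, 25.2% of all genes were called lower and 22.1% higher in icKO IP.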
